A study of Mus musculus with 16 samples.

Results

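The cytosolic ribosomal protein genes were followed across osteoclast cultures of 4 mouse genotypes. Members were the rows whose symbol is Rpl or Rps followed by digits and at most the letters a, l or x, together with Rplp0, Rplp1, Rplp2 and Rpsa. The kinases of the Rps6k family and names with "ps", which mark pseudogenes, were left out. The rule found 81 genes among the 21936 rows of the count table, of which 50 encode large-subunit proteins (the Rplp genes included) and 31 small-subunit proteins (Rpsa included). Among them, 80 had enough counts to be tested, together with 12093 genes in all. The untested member, Rpl10l, a copy of Rpl10 known for its expression in testis, had 0 counts in all 16 libraries.

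All cultures came from bone marrow cells of C57BL/6J mouse lines selected for CD11b. They received M-CSF (50 ng/ml) alone for 3 days and RANKL (20 ng/ml) in addition afterwards, the cytokines that drive osteoclast formation. The genotypes were FLT3 ITD Ptprc KO (an internal tandem duplication knocked into Flt3, with Ptprc knocked out as well), FLT3 ITD (Flt3 duplication only), Ptprc KO (Ptprc deletion only) and WT (neither change), with 4 libraries each. FLT3 ITD is an always-active receptor kinase of acute myeloid leukaemia, and Ptprc encodes CD45, a tyrosine phosphatase of blood cells. RNA was collected between day 3 and day 5, once mature osteoclasts were seen. The day of each culture, the age of the mice and whether replicates came from separate mice are not given in the sources used here. P-values therefore measure the spread between these libraries, which may be technical.

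Ribosomal proteins coat the ribosomal RNA of the large and the small subunit, and each ribosome carries about a single copy of nearly every protein, so cells hold their mRNAs at related levels. Many of these mRNAs begin with a C followed by a run of pyrimidines, the 5′ terminal oligopyrimidine (TOP) motif, through which the kinase mTOR and the RNA-binding protein LARP1 control their translation. Osteoclasts secrete large amounts of acid and proteases, and mTOR signalling downstream of M-CSF and RANKL is known to act in their survival and differentiation.

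The starts of 8 members are shown because they include the genes that the comparisons below turn on, with and without a TOP-like run. Each line gives 30 bases around the RefSeq start on the gene's own strand (build GRCm38.p6, 20 bases before the start and 10 from it). Capitals mark the run from its C nearest the start, as far as it lies in the window. Where C or T bases stand directly before the capitals, as in Rps6, Rps21 and Rps27, the run begins earlier than marked. A run was a C followed directly by at least 4 further C or T, beginning within 5 bases of the start, searched on the sense strand. Rps21 has 2 RefSeq starts, of which the one shown holds a run and the other holds none.
Rpl38 (chr11:114668560-114668589, plus strand): ccggaagcggaagcctcgttCTTTCCCCgt
Rps6 (chr4:86857358-86857387, minus strand): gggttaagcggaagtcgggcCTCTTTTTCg
Rps21 (chr2:180257359-180257388, plus strand): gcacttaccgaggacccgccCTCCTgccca
Rps27 (chr3:90213639-90213668, minus strand): acaggatttccgctttcgctCCTTTCCggc
Rps16 (chr7:28350669-28350698, plus strand): taaagcccgcttctgtcgtgacgtagcact
Rps28 (chr17:33824553-33824582, minus strand): tcctgggtaccgcgtgcggtctcgcgagag
Rpl4 (chr9:64173367-64173396, plus strand): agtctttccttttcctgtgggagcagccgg
Rpl39l (chr16:10170208-10170237, plus strand): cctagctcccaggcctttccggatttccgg

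Of the 61 members with a RefSeq start window, 28 (45.9%) held such a run at any of their starts, against 21.8% of all 16698 genes with a window. A run of at least 7 bases stood in 22 members (36.1%), against 7.69% of all genes. With the run allowed to begin within 20 bases of the start, 51 members (83.6%) held it, against 54.2% of all genes. A match is a description of these letters, and Rps16 or Rpl4 with none may start elsewhere in these cells.

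Total counts per library ran from 24211724 to 35773313. The targeted gene matched the labels: Ptprc stood between 30.8 and 86.7 CPM (counts relative to the library size after TMM scaling, as CPM) in the 8 knockout libraries and between 230 and 543 CPM in the other 8. All 9 osteoclast markers were detected in every genotype, and their summed level ran from 8391 to 45910 CPM in FLT3 ITD Ptprc KO, from 15698 to 54742 CPM in FLT3 ITD, from 24631 to 63570 CPM in Ptprc KO and from 29054 to 37507 CPM in WT. Several libraries stood apart. FLT3 ITD replicate 2 trended with gene length over all genes (Spearman rho -0.46 across genes, against -0.18 to 0.18 in the other libraries), and the members are short, with a median annotated length of 1739 bases against 3508 bases for all rows. FLT3 ITD replicates 1 and 3 had nearly the same counts (2.77 as chi-square per gene, where the next closest pair of any genotype had 13). The comparisons with FLT3 ITD are therefore given with and without replicate 2, for the list and for the members named.

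The members together took 3.02, 2.5, 3.39 and 3.88% of all counts in FLT3 ITD Ptprc KO replicates 1 to 4. They took 3.17, 5.58, 3.18 and 3.88% in FLT3 ITD, 3.87, 3.34, 3.3 and 3.22% in Ptprc KO, and 3.52, 3.37, 3.09 and 3.31% in WT. FLT3 ITD replicate 2 lay above the other 15 libraries and FLT3 ITD Ptprc KO replicate 2 below them, and the ranges of all 4 genotypes overlapped. Per unit of length, in the authors' TPM, which divides counts by gene length, the share ran from 5.23 to 8.18% in FLT3 ITD Ptprc KO, from 6.55 to 9.91% in FLT3 ITD, from 6.55 to 8.15% in Ptprc KO and from 6.36 to 7.37% in WT. In bulk RNA, a change in the number of cells of a type and a change in RNA per cell cannot be told apart.

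Levels per length differed widely among members. Rplp1, an acidic protein of the stalk that recruits translation factors, was the highest at 5715 ± 1098 TPM in FLT3 ITD Ptprc KO, 6886 ± 1825 TPM in FLT3 ITD, 6036 ± 510 TPM in Ptprc KO and 5854 ± 480 TPM in WT (SD, n = 4 each). Over all libraries Rps15 averaged 2918 TPM, Rplp0, the base of the stalk, 2613 TPM, Rpl4 2212 TPM and Rpl8, a core protein near the catalytic centre, 2136 TPM. From Rps15 to Rpl8, neighbours in this order differed by less than their SDs between the FLT3 ITD Ptprc KO libraries (476 to 640 TPM). Those SDs do not decide the order of genes within a library. Rplp0 lay above Rpl4 in every FLT3 ITD Ptprc KO library (2024, 1949, 3005 and 3171 TPM against 1940, 1494, 2276 and 2606 TPM). The order of Rps15 and Rplp0, and of Rpl4 and Rpl8, changed between these libraries. In WT, Rps15 (2772 ± 127 TPM), Rplp0 (2587 ± 156 TPM), Rpl4 (2260 ± 247 TPM) and Rpl8 (2077 ± 226 TPM) kept this order in every library. At the low end stood Rpl3l with 1.01 TPM, Rpl36al with 2.42 TPM, Rpl39l with 4.06 TPM, Rps10 with 4.5 TPM and Rpl13a with 79.4 TPM.

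Some members overlap other annotated genes, which makes their counts uncertain. In GENCODE on the same build, Rps10 shares a strand with the coding read-through gene RPS10-NUDT3, Rpl13a with Gm45713, Rpl36al with Gm49383 and Rpl13 with Gm20388. Rpl13 averaged 539 TPM in spite of the overlap, and the part of the overlaps in the low levels was not tested. The sources used here do not give how reads that fall in more than a single gene were counted. Near-identical copies add to this: the share of a member's 50-base windows that recur in another annotated gene reached 98.6% in Rps27, 95.1% in Rpl35, 93.8% in Rpl5 and 92.1% in Rpl10, and it was 0% in Rpl39l and Rpl3l, among others. Counts of such members are uncertain to the extent that reads with several matches were dropped or split.

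The median member varied little between the WT libraries. The median SD of log2 CPM between WT libraries was 0.05 for the 80 members and 0.19 for all tested genes. It was 0.08 against 0.3 in Ptprc KO and 0.18 against 0.36 in FLT3 ITD Ptprc KO. In FLT3 ITD the order was turned, with 0.49 for the members and 0.44 for all genes, and without replicate 2 the values were 0.29 and 0.32. Among all genes with a mean of at least 5 CPM, a closer match for these abundant members, the median SD was 0.16 in WT, 0.25 in Ptprc KO, 0.3 in FLT3 ITD Ptprc KO and 0.4 in FLT3 ITD, or 0.28 without replicate 2. Among members with a mean of at least 5 CPM, Rpl13a, Rpl38 and Rpl23a varied most within genotypes (pooled SD 0.51, 0.36 and 0.35), and Rpl10 and Rpl4 were among those that varied least (0.15 and 0.18).

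**Figure D1:**
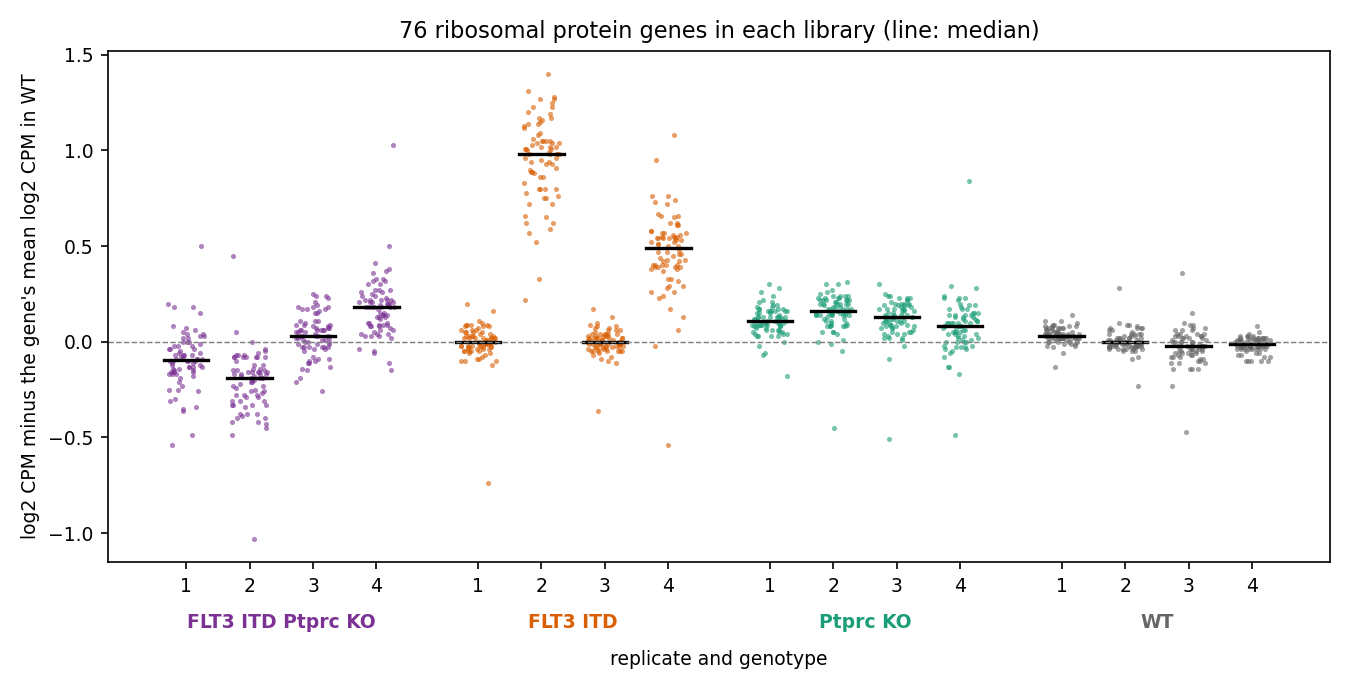
Each point is 1 of the 76 tested members that are not paralog copies, placed by its log2 CPM minus its mean log2 CPM in WT (vertical axis) in each library (horizontal axis, replicates 1 to 4 of each genotype), and lines mark medians. FLT3 ITD replicates 2 and 4 sit at medians of 0.98 and 0.49, and replicates 1 and 3 at 0.

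Against the mean of WT, the median member stood at -0.1, -0.19, 0.03 and 0.18 (log2) in FLT3 ITD Ptprc KO replicates 1 to 4. It stood at -0.01, 0.98, 0 and 0.47 in FLT3 ITD, at 0.11, 0.16, 0.13 and 0.08 in Ptprc KO, and at 0.03, 0, -0.02 and -0.01 in the WT libraries themselves. In FLT3 ITD the high libraries were replicates 2 and 4. Of the 76 members that are not paralogs, 76 and 74 were above their WT mean in these libraries, against 37 and 36 in replicates 1 and 3. In FLT3 ITD replicate 2, 78 of 80 members lay above every WT library, and in replicate 4 this held for 74 members. The count was 17 and 15 in replicates 1 and 3. The share of all tested genes above every WT library was 36.5 and 36.9% in replicates 2 and 4, and 23.3 and 22.5% in replicates 1 and 3.

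Other features of the FLT3 ITD libraries also differed. Replicates 2 and 4 had the only negative trends with gene length over all genes (Spearman rho -0.46 and -0.18), and their totals were 25011720 and 26594432 counts, against 32355800 and 32191534 in replicates 1 and 3. Replicate 2 had a summed osteoclast marker level of 54742 CPM, the highest of its genotype, and replicate 4 had 15698 CPM, the lowest. The neutrophil list summed to 19.8 CPM in replicate 2 and to 107 CPM in replicate 4, against 5.86 and 9.22 CPM in replicates 1 and 3, with all 8 markers detected in the genotype. The proliferation genes Top2a and Mki67 summed to 248 and 54.7 CPM in replicates 2 and 4, against 492 and 519 CPM in replicates 1 and 3. The part of these differences in the members' levels was not tested.

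The effect of the mutant receptor with Ptprc intact is read from FLT3 ITD against WT. No member passed the test: 0 of 80 were called at an adjusted p under 0.05 (edgeR quasi-likelihood test, Benjamini-Hochberg over all genes), against a background of 0.0413% of the 12093 tested genes. The members leaned upward all the same. Their median log2 fold change was 0.42 (quartiles 0.35 and 0.49) against 0.04 for all genes, and 78 of 80 were positive, against 54.5% of all genes. At an unadjusted p under 0.05, 46 members were higher in FLT3 ITD, against 5.23% of all genes, and Rpl39l alone was lower, against 3.23%. The count of 46 was 2 with library totals, 0 with only the compared groups fitted and 17 with the length trend removed. With limma on log2(TPM + 1) it was 0. It was 24 with the replicate block, 52 with RLE scaling, 58 with DESeq2 and 68 with FLT3 ITD replicates 1 and 3 summed. In these fits 574 (only the compared groups) to 1483 (replicates summed) genes passed in either direction, against 1022 in the main fit. Leaving out a library gave 0 (FLT3 ITD replicate 2) to 69 members (FLT3 ITD replicate 1), where 424 and 1506 genes passed. Leaving out a WT library gave 11 to 17 members, where 510 to 806 genes passed. Large- and small-subunit members had the same median of 0.43, over 46 and 30 genes without the paralogs.

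Without FLT3 ITD replicate 2, the median was 0.17 (quartiles 0.13 and 0.21) against 0.03 for all genes. Then 76 of 80 members were positive, against 56% of all genes, and none was called by edgeR, against 0.0082% of genes. None was higher at an unadjusted p under 0.05, against 1.52% of genes, and Rpl39l alone was lower, against 1.95%. With replicates 1 and 3 summed as 1 library and replicate 2 left out, the median was 0.26 against 0.02 for all genes. In that fit 14 members were higher at that threshold, and 381 of 12315 genes passed it in either direction. The libraries of 13 members did not overlap between FLT3 ITD and WT in the higher direction (background 2.89%), and without replicate 2 this held for 12 members (background 3.5%). With library totals in place of TMM scaling the first count was 0 (background 0.893%), so it depends on the scaling.

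Rpl38, a small protein of the large subunit known in mouse for its part in the translation of Hox mRNAs, had the highest fold. It stood at 96.9, 261, 95.4 and 165 CPM in FLT3 ITD, against 97.8, 97, 101 and 98.7 CPM in WT, so that replicates 1 and 3 lay at or under WT. The log2 fold change of Rpl38 came to 0.65 (SE 0.25, adjusted p = 0.59, edgeR), and to 0.27 (SE 0.16, adjusted p = 1) without replicate 2. Rps28, a small-subunit protein, showed the same split of libraries, with 136, 314, 133 and 223 CPM in FLT3 ITD against 138, 130, 137 and 123 CPM in WT. Here the log2 fold change came to 0.61 (SE 0.21, adjusted p = 0.59), and to 0.31 (SE 0.15) without replicate 2.

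The stalk proteins and the laminin-receptor protein Rpsa followed the list. Rplp1 stood at 868, 1826, 877 and 1117 CPM in FLT3 ITD against 838, 862, 775 and 819 CPM in WT, and these ranges did not overlap (log2 fold change 0.51, SE 0.2, adjusted p = 0.59). Rplp2, its partner in the stalk, had a log2 fold change of 0.54 (SE 0.22) and Rplp0 one of 0.29 (SE 0.16). Without replicate 2, Rplp1, Rplp2 and Rplp0 stood at 0.21, 0.22 and 0.16 (SE 0.13, 0.15 and 0.15). Rpsa stood at 1148, 2072, 1129 and 1125 CPM in FLT3 ITD against 987, 1055, 907 and 1059 CPM in WT, without overlap. For Rpsa only replicate 2 stood apart within FLT3 ITD, and replicate 4 did not.

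Members with long coding sequences were among those with the lowest fold changes. Rpl3, a protein near the catalytic centre, stood at 762, 1170, 745 and 726 CPM in FLT3 ITD against 774, 760, 683 and 740 CPM in WT. Rpl4 stood at 1378, 1835, 1329 and 1401 CPM against 1356, 1341, 1164 and 1266 CPM. In both genes replicate 2 was high and replicate 4 lay with replicates 1 and 3. Their log2 fold changes were 0.20 (SE 0.17) and 0.21 (SE 0.15), and without replicate 2 they were 0.01 (SE 0.13) and 0.09 (SE 0.14). Rpl10, which joins the large subunit late, also had 0.21 (SE 0.13), and 0.16 (SE 0.13) without replicate 2. On the scale of log2(TPM + 1), where the median of all genes was -0.21, these 3 members had -0.06, -0.04 and -0.04 (Rpl3, Rpl4 and Rpl10), so their direction depends on the unit.

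**Figure D2:**
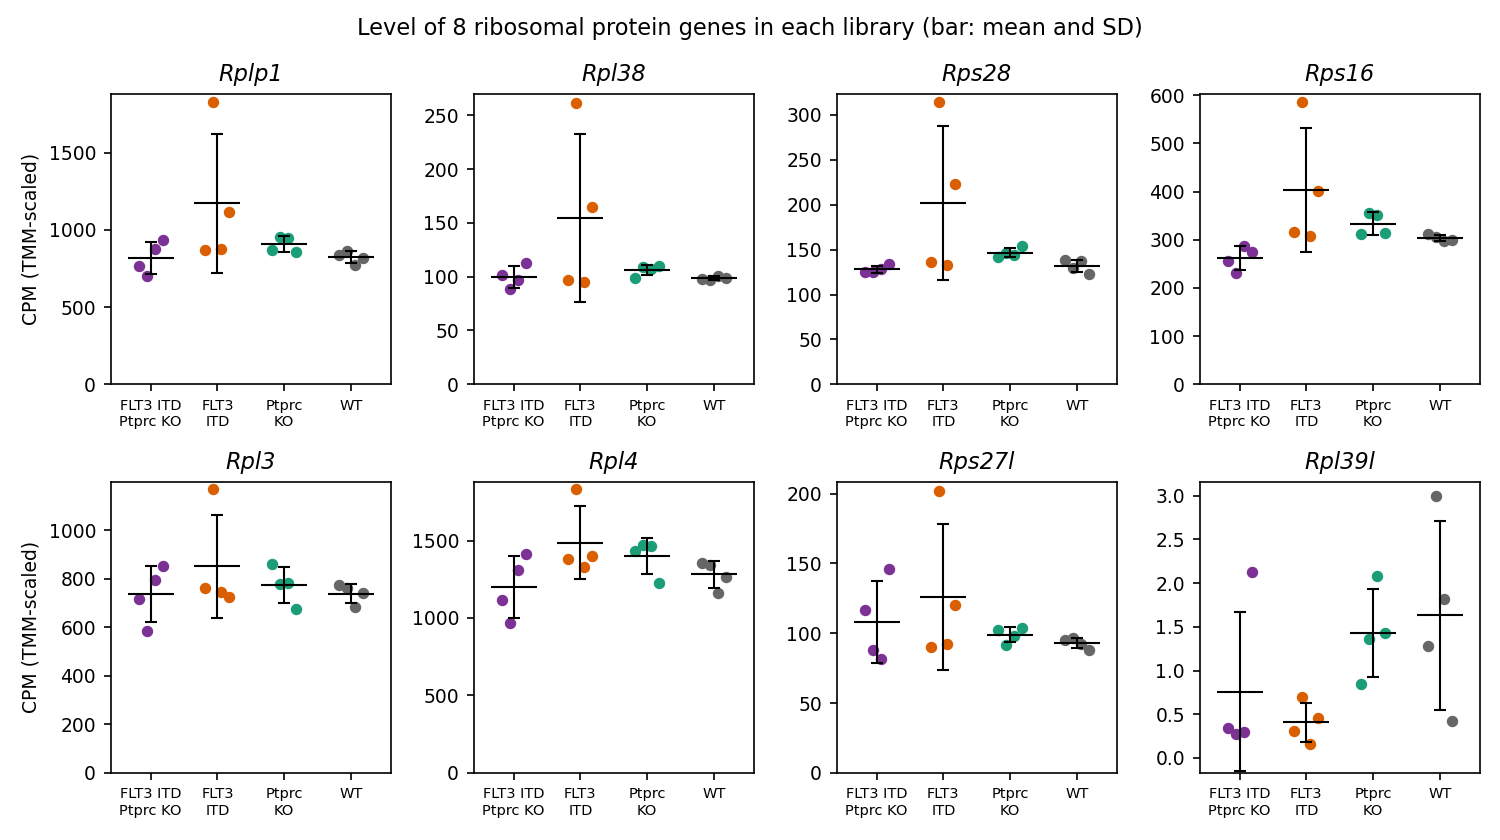
CPM of 8 members (vertical axes) in the 4 libraries of each genotype (horizontal axes), with bars for mean and SD. For Rplp1, Rpl38, Rps28 and Rps16 the FLT3 ITD libraries 2 and 4 stand above the rest, while for Rpl3 and Rpl4 only library 2 does.

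In FLT3 ITD replicates 2 and 4 the height of a member went with its coding length. In replicate 2, the 20 members with the shortest coding sequence (138 to 375 bases) had a median of 1.14 above WT and the 20 longest (624 to 1257 bases) one of 0.77. In replicate 4 the medians were 0.58 and 0.33. Over the 76 members that are not paralogs, Spearman's rho between deviation and coding length was -0.63 and -0.72 in replicates 2 and 4, and 0.35 and 0.21 in replicates 1 and 3. These are descriptions across genes that share a library. The rho was between -0.45 and 0.53 in WT, where the deviations themselves are small, and -0.59 in Ptprc KO replicate 4. With the length trend of each library removed over all genes, the FLT3 ITD median of 0.42 became 0.23, against 0.07 for all genes.

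**Figure D3:**
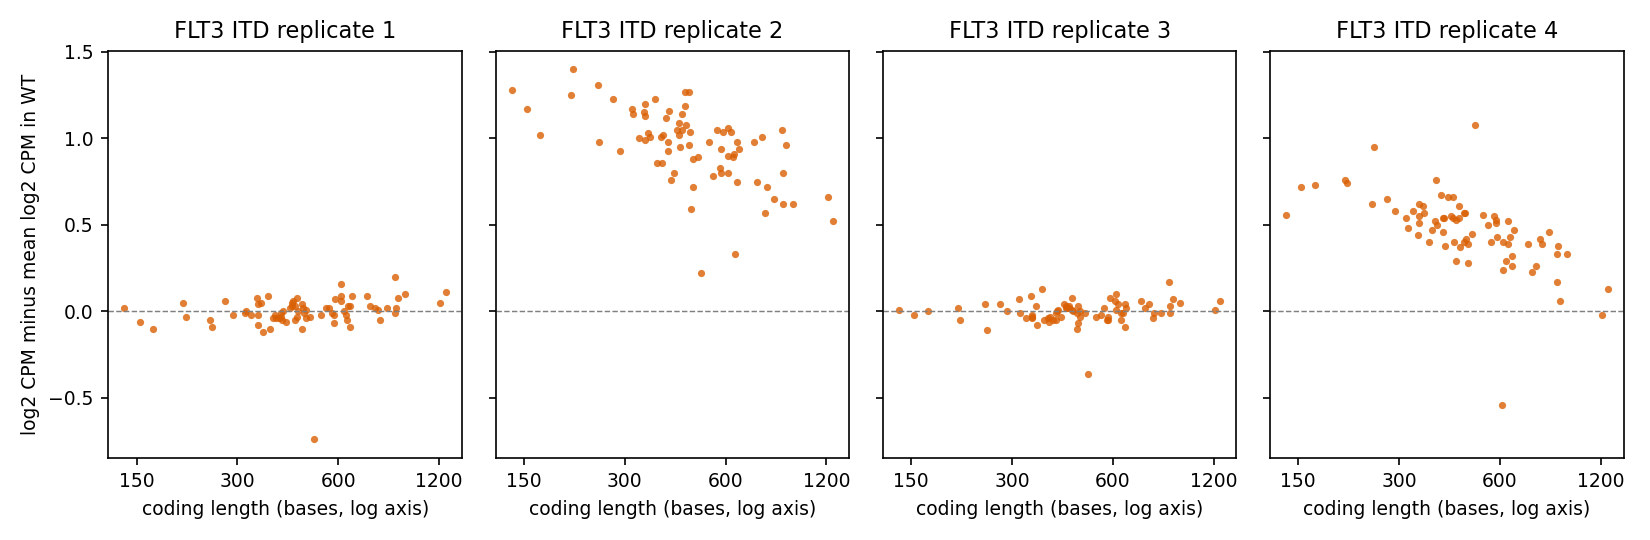
Deviation of each of 76 members from its WT mean (vertical axis, log2 CPM) against its coding length in bases (horizontal log axis) in the 4 FLT3 ITD libraries. In replicates 2 and 4 the short members stand higher (Spearman rho -0.63 and -0.72), and in replicates 1 and 3 the members lie around 0.

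**Figure D4:**
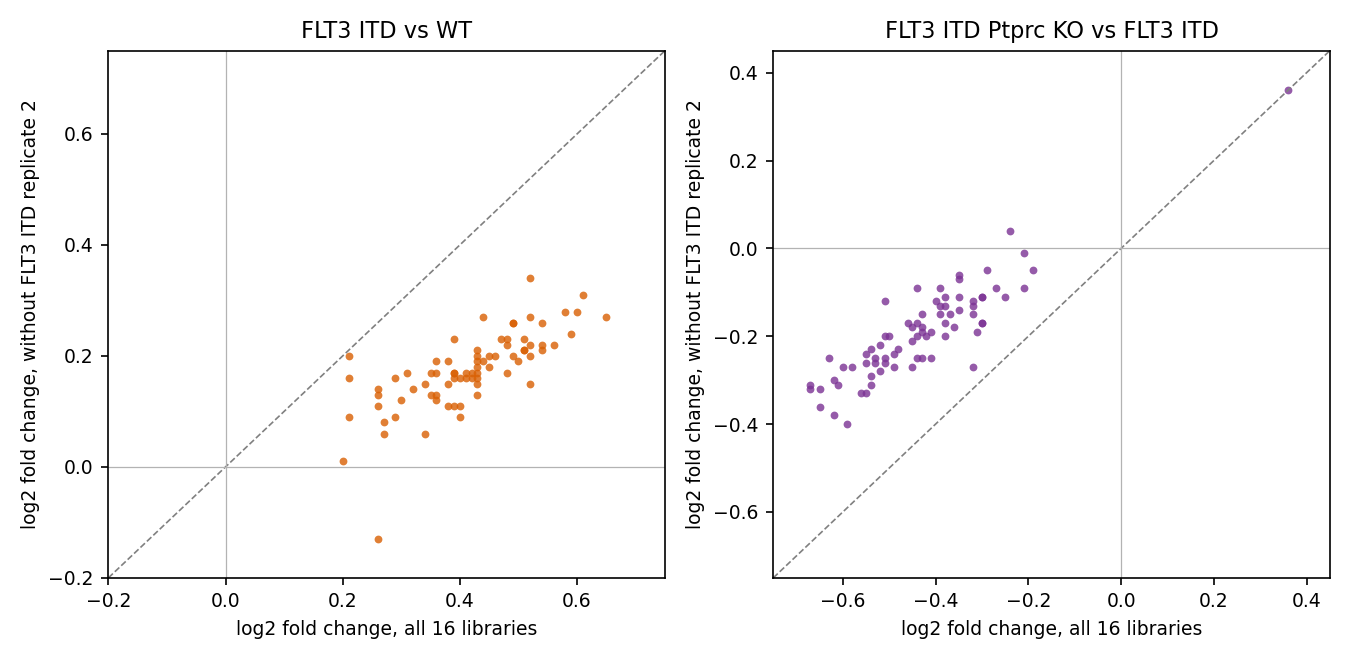
Log2 fold change of 76 members from all 16 libraries (horizontal axes) and without FLT3 ITD replicate 2 (vertical axes), for FLT3 ITD against WT on the left and FLT3 ITD Ptprc KO against FLT3 ITD on the right; dashed lines mark equality. Nearly all points move toward 0 when the replicate is left out.

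CD45 loss on its own is read from Ptprc KO against WT. The members stood slightly higher in Ptprc KO, by a median log2 fold change of 0.12 (quartiles 0.09 and 0.14) against 0.02 for all genes, and 78 of 80 were positive, against 54.9% of all genes. On log2(TPM + 1) their median was 0.02 against -0.08 for all genes, so its size depends on the unit. No member was called (edgeR; background 0.0331% of genes), and none passed an unadjusted p under 0.05 in either direction (background 0.339% higher and 0.504% lower). In 32 members all 4 Ptprc KO libraries lay above all 4 WT libraries, against 0.786% of all genes. That count was 31 with RLE scaling (background 0.81%) and 0 with library totals (background 0.298%), where the list's median was 0.05. Recomputed without FLT3 ITD replicate 2, which alters the scaling and the genes tested, it was 30 (background 0.754%).

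With TMM scaling the differences were small and regular. Among members with a mean of at least 5 CPM, Rpl36 had the highest log2 fold change at 0.22 (SE 0.2, adjusted p = 1, edgeR), followed by Rpl27 at 0.2 (SE 0.22) and Rpl27a at 0.19 (SE 0.2). Rpl27a stood at 241, 264, 258 and 237 CPM in Ptprc KO against 230, 235, 210 and 204 CPM in WT, and Rps28 at 142, 146, 144 and 154 CPM against 138, 130, 137 and 123 CPM. In both genes the lowest Ptprc KO library lay just above the highest WT library. Rpl41, which encodes the smallest ribosomal protein, had 361, 328, 311 and 330 CPM in Ptprc KO against 349, 329, 315 and 331 CPM in WT, and these overlapped throughout (log2 fold change 0.01, SE 0.23). Rps2 and Rps4x stood at 0.04 (SE 0.23) and 0.05 (SE 0.15), and all 3 turned negative with library totals.

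CD45 loss beside the mutant receptor is read from FLT3 ITD Ptprc KO against FLT3 ITD. The members were lower in FLT3 ITD Ptprc KO, with a median log2 fold change of -0.43 (quartiles -0.53 and -0.35) against 0.03 for all genes, and 78 of 80 were negative, against 48% of all genes. None was called by edgeR (background 0.00827%). At an unadjusted p under 0.05, 45 were lower (background 13.7%) and 0 higher (background 11.9%). The count of 45 was 21 with library totals, 7 with only the compared groups fitted and 18 with the length trend removed. With limma on log2(TPM + 1) it was 2. It was 56 with RLE scaling, 61 with DESeq2 and 67 with FLT3 ITD replicates 1 and 3 summed. In these fits 1421 (only the compared groups) to 3569 (DESeq2) genes passed in either direction, against 3104 in the main fit. Without FLT3 ITD replicate 2, the median was -0.19 against 0.02 for all genes, 76 were negative (background 47.4%), none was called (background 0.0082%) and 10 were lower at an unadjusted p under 0.05 (background 6.37%). With the near-identical FLT3 ITD replicates 1 and 3 summed as well, the median was -0.28 against -0.01 for all genes. At that threshold 24 members were then lower, and 1075 of 12315 genes passed in either direction.

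Rps16, a protein of the small subunit's head, separated FLT3 ITD Ptprc KO from the other genotypes, which overlapped one another. It stood at 256, 231, 288 and 275 CPM in FLT3 ITD Ptprc KO, against 317, 586, 308 and 401 CPM in FLT3 ITD, 311, 356, 352 and 314 CPM in Ptprc KO, and 313, 305, 298 and 299 CPM in WT. All 4 FLT3 ITD Ptprc KO libraries lay under the other 12, with the highest at 288 CPM against 298 CPM in the nearest WT library. Its log2 fold change against FLT3 ITD was -0.62 (SE 0.17, adjusted p = 0.11, edgeR), and -0.38 (SE 0.11, adjusted p = 0.22) without FLT3 ITD replicate 2. Against Ptprc KO it was -0.34 (SE 0.17, adjusted p = 0.3) and against WT -0.21 (SE 0.17, adjusted p = 0.62).

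Rps16 was called in some other fits. DESeq2 called it (adjusted p = 0.015) with 8 more members, among them Rpl34, Rpl27a, Rps28, Rps13, Rps21, Rps14 and Rpl19, and 984 genes in all (11.2% of members and 8.14% of genes). With edgeR it was called without FLT3 ITD Ptprc KO replicate 3 (adjusted p = 0.043) and without FLT3 ITD replicate 4 (adjusted p = 0.045). Those fits called 10.8 and 14.7% of all genes, and 2.5 and 1.25% of the members, so the members' share was under the background. Rpl27a was the other member whose libraries did not overlap, at 179, 169, 200 and 211 CPM in FLT3 ITD Ptprc KO against 212, 455, 223 and 269 CPM in FLT3 ITD. These 2 members compare with a background of 3.52% of genes, and without FLT3 ITD replicate 2 there were also 2 (background 3.76%). The fold change of Rpl27a came to -0.61 on the log2 scale (SE 0.2, adjusted p = 0.12), and to -0.31 (SE 0.11, adjusted p = 0.28) without FLT3 ITD replicate 2.

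The lowest fold changes in this comparison were those of Rpl23a and Rps21, both at -0.67, and of Rps28 at -0.65 (SE 0.25, 0.23 and 0.21). These were -0.31, -0.32 and -0.36 (SE 0.17, 0.14 and 0.15) without FLT3 ITD replicate 2. The members nearest to 0 with a mean of at least 5 CPM were Rpl6 at -0.19 (SE 0.15), Rps4x at -0.21 (SE 0.15) and Rpl3 at -0.21 (SE 0.17), and without that replicate they stood at -0.05, -0.09 and -0.01. On log2(TPM + 1) these 3 had 0.03, 0.02 and 0, where the median of all genes was 0.22. With the length trend removed, the list's median was -0.18 against 0.02 for all genes. The FLT3 ITD Ptprc KO libraries also differed in osteoclast markers, whose sum was 8391, 9072 and 10170 CPM in replicates 1, 2 and 4 and 45910 CPM in replicate 3, and Top2a and Mki67 summed to 1611, 270, 1122 and 504 CPM in the same libraries. The part of these differences was not tested.

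The mutant receptor without CD45 is read from FLT3 ITD Ptprc KO against Ptprc KO, to which no FLT3 ITD library adds a value. The members had a median log2 fold change of -0.14 (quartiles -0.2 and -0.08) against 0.04 for all genes, and 71 of 80 were negative, against 45.6% of all genes. None was called by edgeR (background 0.091%) and none passed an unadjusted p under 0.05 (background 8.75% higher and 9.07% lower). In 10 members the FLT3 ITD Ptprc KO libraries lay under all Ptprc KO libraries (background 2.84%). These were Rpl27a, Rpl30, Rpl34, Rps7, Rps13, Rps16, Rps21, Rps23, Rps27 and Rps28, named because of that count. The count was 14 with RLE scaling (background 3.32%), 15 with TMM factors from the other genes (background 3.54%) and 2 with library totals (background 2.85%), so it depends on the scaling. With the spread estimated without FLT3 ITD replicate 2, Rpl27a, Rps13, Rps16 and Rps25 were lower at an unadjusted p under 0.05 (background 11%) and none was called (background 0.148%). The list's median was -0.08 without FLT3 ITD Ptprc KO replicate 2 and -0.23 without replicate 4.

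Rpl11, among the few members above 0, can be set beside Rpl5, since the pair bind 5S ribosomal RNA and the p53 regulator Mdm2 together. Rpl11 stood at 466, 389, 397 and 539 CPM in FLT3 ITD Ptprc KO against 454, 392, 410 and 434 CPM in Ptprc KO (log2 fold change 0.08, SE 0.2). Rpl5 stood at 378, 373, 463 and 478 CPM against 478, 533, 515 and 454 CPM (log2 fold change -0.23, SE 0.16). Both pairs of groups overlapped. Without FLT3 ITD Ptprc KO replicate 4 the fold change of Rpl11 was -0.04.

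FLT3 ITD Ptprc KO against WT compares both changes together with neither. The members lay around 0, with a median log2 fold change of -0.02 (quartiles -0.07 and 0.03) against 0.05 for all genes, 30 of them positive (background 56.3%) and 50 negative (background 43.7%). None was called by edgeR (background 0.108%) and none passed an unadjusted p under 0.05 (background 4.2% higher and 3.69% lower). Rps16 alone did not overlap, in the lower direction (background 2.56%). Replicate 2 lay at a median of -0.19 and replicate 4 at 0.18 against WT, on either side of 0. The list's median was 0.04 without replicate 2 and -0.11 without replicate 4.

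The interaction asks whether the effect of CD45 loss depends on the FLT3 mutation. It was negative in 78 of 80 members (background 48.8%), with a median of -0.54 (quartiles -0.67 and -0.44) against 0.02 for all genes. None was called by edgeR (background 0.00827%), while 39 were negative (background 10.1%) and 0 positive (background 7.4%) at an unadjusted p under 0.05. The count of 39 was 4 with library totals, 16 with the length trend removed and 22 with the replicate block. With limma on log2(TPM + 1) it was 0. It was 44 with RLE scaling, 47 with DESeq2 and 58 with FLT3 ITD replicates 1 and 3 summed. In these fits 1993 (library totals) to 2559 (DESeq2) genes passed in either direction, against 2120 in the main fit. Without FLT3 ITD replicate 2 the median was -0.31 against 0.02, 75 members were negative (background 48.6%) and 18 passed an unadjusted p under 0.05 (background 6.1%), while none was called (edgeR called 0 genes of 12201). With FLT3 ITD replicates 1 and 3 summed as well, the median was -0.38 against -0.01. At that threshold 33 members were then negative, and 968 of 12315 genes passed in either direction. Rps16 had an interaction of -0.75 (SE 0.24, adjusted p = 0.25, edgeR) and of -0.51 (SE 0.16, adjusted p = 0.3) without FLT3 ITD replicate 2. The 6 comparisons share their libraries, so the fold changes of a member in them are not separate evidence.

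**Figure D5:**
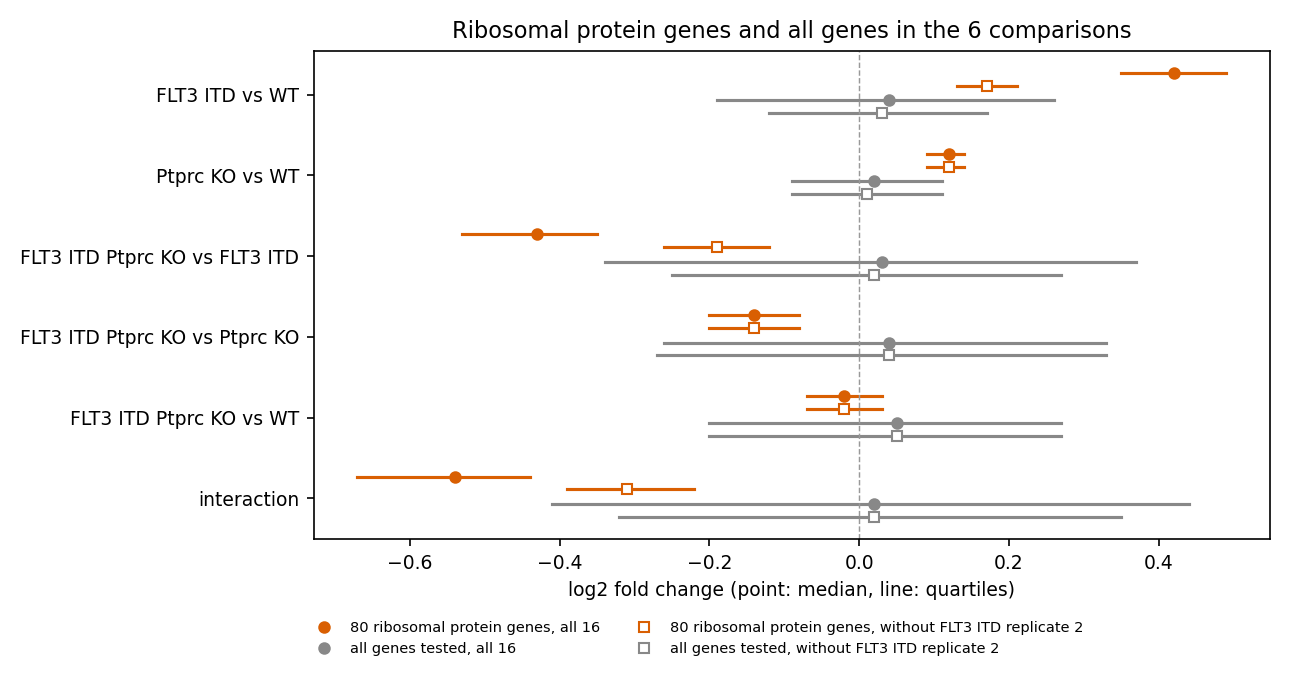
Median and quartiles of the log2 fold change (horizontal axis) of the 80 tested members and of all tested genes in the 6 comparisons (vertical axis), with all 16 libraries (filled) and without FLT3 ITD replicate 2 (open). The members' median goes to 0.17 for FLT3 ITD against WT and to -0.19 for FLT3 ITD Ptprc KO against FLT3 ITD without the replicate. It is 0.12 in both fits for Ptprc KO against WT, to which the replicate adds no value.

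Members with and without a TOP-like run had close medians. The 27 members with a run and the 29 without, paralogs apart, had the same median log2 fold change of 0.43 in FLT3 ITD against WT. In FLT3 ITD Ptprc KO against FLT3 ITD the medians were -0.43 and -0.44, and in Ptprc KO against WT 0.12 and 0.13. The first pair was 0.2 and 0.18 and the second -0.2 and -0.2 without FLT3 ITD replicate 2. Rps6, a target of S6 kinase whose window above holds a run, stood at 326, 269, 363 and 407 CPM in FLT3 ITD Ptprc KO, 356, 588, 354 and 409 CPM in FLT3 ITD, 392, 374, 354 and 330 CPM in Ptprc KO, and 365, 349, 330 and 353 CPM in WT. Rps28, whose window holds none, had a larger fold change in FLT3 ITD than Rps6 (0.29, SE 0.17, and 0.09, SE 0.13, without replicate 2), and the difference between the genes was not tested.

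The paralogs, copies of a ribosomal protein gene that are often restricted to some tissues, did not all follow. Rpl39l, known from mouse testis, stood at 0.337, 0.277, 0.293 and 2.13 CPM in FLT3 ITD Ptprc KO, at 0.313, 0.693, 0.156 and 0.458 CPM in FLT3 ITD, at 0.842, 1.36, 2.08 and 1.43 CPM in Ptprc KO and at 1.28, 3, 1.82 and 0.426 CPM in WT. The FLT3 ITD libraries overlapped WT only through WT replicate 4, and a total of 42 counts in FLT3 ITD stood against 215 in WT. The log2 fold change of FLT3 ITD against WT was -2.03 (SE 0.74, unadjusted p = 0.0156, adjusted p = 0.59, edgeR), and -2.41 (SE 0.85, adjusted p = 1) without replicate 2. Its ubiquitous counterpart Rpl39 went the other way, at 136, 318, 139 and 233 CPM in FLT3 ITD against 144, 137, 148 and 137 CPM in WT (log2 fold change 0.54, SE 0.22, adjusted p = 0.59, and 0.26, SE 0.17, without replicate 2).

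Rps27l, a copy of Rps27 known as a p53 target, was the only paralog at the level of common members. It stood at 117, 88.3, 81.7 and 146 CPM in FLT3 ITD Ptprc KO, 89.9, 202, 92.6 and 120 CPM in FLT3 ITD, 102, 91.8, 98.1 and 104 CPM in Ptprc KO and 95.4, 96.3, 92.6 and 88 CPM in WT. FLT3 ITD Ptprc KO replicates 1 and 4 lay above every WT library and replicates 2 and 3 did not. Its log2 fold change against WT was 0.22 (SE 0.23, adjusted p = 0.68) in FLT3 ITD Ptprc KO, where Rps27 had -0.06 (SE 0.22). Rpl3l, known from striated muscle, had 2 to 35 counts per library and Rpl36al 17 to 46, too few to rank their libraries.

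The list of genes outside the symbol rule holds 6 genes, among them Rps3a1, Fau and Rack1 of the ribosome and the copies Rpl22l1 and Rpl7l1. All 6 were positive in FLT3 ITD against WT and 5 were negative in FLT3 ITD Ptprc KO against FLT3 ITD, with medians of 0.33 and -0.38 and none called. Without FLT3 ITD replicate 2, 5 were positive in the first and 5 negative in the second, with medians of 0.1 and -0.18. Of all genes, 54.5% were positive in the first and 48% negative in the second (56% and 47.4% without that replicate). Fau, which encodes the small-subunit protein of a ubiquitin-like fusion, stood at 243, 516, 245 and 431 CPM in FLT3 ITD against 259, 243, 262 and 249 CPM in WT, with replicates 2 and 4 high as in Rpl38. Rps3a1 had a log2 fold change of 0.37 (SE 0.17) and Rack1, a scaffold on the small subunit, of 0.26 (SE 0.15). Fau had 0.5 (SE 0.2), and without replicate 2 Fau, Rps3a1 and Rack1 stood at 0.27, 0.14 and 0.12 (SE 0.17, 0.12 and 0.12). Rpl22l1, a copy of Rpl22, was the lowest in FLT3 ITD Ptprc KO against FLT3 ITD, at -0.88 (SE 0.29, adjusted p = 0.12), and its libraries stood at 42.3, 43.5, 69.4 and 36.4 CPM against 69.4, 161, 70.3 and 51.4 CPM. Its fold change stood at -0.41 (SE 0.2, adjusted p = 0.36) without FLT3 ITD replicate 2.

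The other lists cover further parts of the translation machinery. As their background in FLT3 ITD against WT, 54.5% of all genes were positive, and 56% with a median of 0.03 without replicate 2. Of 18 non-ribosomal genes known for TOP mRNAs, 15 were positive in FLT3 ITD against WT, with a median of 0.22 against 0.04 for all genes, and 14 with a median of 0.06 without replicate 2. With all libraries the highest was Eef1b2, a subunit of the elongation factor exchange complex (0.45, SE 0.21), and the lowest Eif4b (-0.21), while Eef1a1 had 0.1 (SE 0.13). Of 32 genes of ribosome assembly and ribosomal RNA synthesis, 27 were positive with a median of 0.19, and 29 with a median of 0.17 without replicate 2, led by Nhp2 at 0.66 (SE 0.29) with all libraries. Of 18 regulators of the machinery, 10 were positive and 8 negative, with a median of 0.01, and 12 and 6 with a median of 0.06 without replicate 2. None of these genes was called in any of the 6 comparisons, with or without the replicate. In FLT3 ITD Ptprc KO against FLT3 ITD the assembly list had a median of 0.05 and 19 positive genes (0.03 and 20 without replicate 2), where 78 of 80 ribosomal protein genes were negative. All genes had a median of 0.03 there with 48% negative (0.02 and 47.4% without replicate 2), so the assembly list lay near the background.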

How the data were processed

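Poly(A) RNA of 16 osteoclast cultures was sequenced with a directional kit and UMI adaptors, per the labels' protocols. Per gene, the authors deposited raw counts with a gene length, and TPM values. The submitters' processing notes name STAR 2.7.6a, featureCounts 2.0.3, UMI-tools 1.1.1, cutadapt 4.2, bcl2fastq 2.20.0.422 and build GRCm38.p6, with no settings. Groups came from the genotype labels.

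The main test on the deposited counts used edgeR 4.0.16 under R 4.3.3 (filterByExpr, TMM, robust quasi-likelihood fit of 4 group means over all 16 libraries, 12 residual degrees of freedom, biological coefficient of variation 0.37), with Benjamini-Hochberg adjustment over all tested genes and a threshold of 0.05. Log2 CPM used a prior count of 2. Alternatives were RLE factors, library totals, TMM without the members, a filter on mean counts under 50, no filter, DESeq2 1.42.0, limma 3.58.1 on log2(TPM + 1), a replicate block, only the groups compared, length-trend offsets (loess), FLT3 ITD replicates 1 and 3 summed (also without replicate 2), and leaving out each library. The test was checked only on counts simulated with a dispersion of 0.05, where these data had 0.137, and with no outlying library. That check does not cover libraries such as FLT3 ITD replicate 2. Start windows and annotation came from RefSeq (GRCm38.p6) and GENCODE (GRCm38).

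Genes named are members past the threshold, the 3 highest and 3 lowest fold changes per comparison with a mean of at least 5 CPM, a fixed list of members, the 5 highest and 5 lowest mean TPM, the 3 most and 3 least variable members, and genes outside the symbol rule. Others were named after their values were seen. The members and lists were chosen with earlier results of these data known. Some genes that the rule names are not reported here.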

Additional observations from a re-analysis of the deposited data

Results flagged for a closer look

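Among 160 groups of 4 libraries examined (40 results: single members, the list's mean and its share of counts), 9 held a library far from the other 3. That number is near the share of about 5% that chance flags. The genes share their libraries, so flags in the same library are not separate evidence. All values here are log2 CPM. In FLT3 ITD it was replicate 2 each time: Rps2 stood at 10.25 against 9.35 to 9.37 in the others, Rpsa at 11.02 against 10.14 to 10.16, Rpl3 at 10.19 against 9.5 to 9.57 and Rpl4 at 10.84 against 10.38 to 10.45. In Ptprc KO it was replicate 4, where Rpl13a stood at 5.11 against 5.78 to 5.9 and Rpl4 at 10.26 against 10.48 to 10.52. In FLT3 ITD Ptprc KO, Rpl39l stood at 1.14 in replicate 4 against -1.54 to -1.3, and Rps27 at 7.78 in replicate 1 against 8.1 to 8.13. In WT, Rps26 stood at 8.49 in replicate 1 against 8.42 to 8.43.

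The mean log2 CPM of the ribosomal protein genes was lower by 0.37 in FLT3 ITD Ptprc KO than in FLT3 ITD (-0.37), and higher by 0.11 in Ptprc KO than in WT. The difference between these effects was -0.48, and for the mean of the list it was not tested. Without FLT3 ITD replicate 2, on the same CPM, the first effect was -0.17 and the difference between the effects -0.28. The interaction of single members was tested, and edgeR called 0 of them, with 39 negative at an unadjusted p under 0.05.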

How the results depend on the processing

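Over 58 results, 1508 alternative values were computed, of which 1387 were labelled the same, 96 moved, 23 turned sign and 2 became called (Rps21 at -0.7 and Rps28 at -0.69 with DESeq2, FLT3 ITD Ptprc KO against FLT3 ITD). A single gene's fold change was the same if direction and side of the threshold held. Medians were the same if they shifted by less than 0.247, the pooled SD of the members' mean log2 CPM within genotypes. Counts were the same within a fixed ratio, and summed shares within the SD of the genotype. A median labelled the same can therefore have changed in size or sign. In that comparison the members called numbered 9 with DESeq2 and 0 to 2 in the fits that left out a library. On log2(TPM + 1), the members' medians were 0.12 (FLT3 ITD against WT), -0.17 (FLT3 ITD Ptprc KO against FLT3 ITD) and -0.2 (interaction), where all genes had -0.21, 0.22 and 0.31. For Ptprc KO against WT the members had 0.02 on that scale and all genes -0.08. With the length trend removed, the median for FLT3 ITD Ptprc KO against FLT3 ITD was -0.18. Leaving out each library gave 0.17 to 0.54 in FLT3 ITD against WT. With library totals all genes had -0.1 there and the members 0.27. Sign changes on log2(TPM + 1) were, for FLT3 ITD against WT, Rpl3 -0.06, Rpl10 -0.04 and Rpl4 -0.04. For Ptprc KO against WT they were Rpl41 -0.08, Rps2 -0.06 and Rps4x -0.04. For FLT3 ITD Ptprc KO against FLT3 ITD they were Rps4x 0.02, Rpl3 0 and Rpl6 0.03, and for the interaction Rpl3 0.03, Rps4x 0.06 and Rpl6 0.06. With library totals, Ptprc KO against WT gave Rpl41 -0.05, Rps2 -0.02 and Rps4x -0.02. The length trend removed gave Rpl41 -0.01 there, and Rps4x 0.04 in FLT3 ITD Ptprc KO against FLT3 ITD. In Ptprc KO against WT, Rpl41 and Rps2 were at -0.05 and -0.07 without Ptprc KO replicate 1, and at -0.02 and -0.03 without WT replicate 3. In FLT3 ITD Ptprc KO against Ptprc KO, Rpl11 and Rps27l were at -0.04 and -0.07 without FLT3 ITD Ptprc KO replicate 4, and leaving out each library gave -0.04 to 0.15 and -0.07 to 0.25 for them. The cause was not tested. A TOP-like run allowed within 20 bases of the start was held by 51 members. Genes called in the 6 comparisons, in the order of the report, were 5, 4, 1, 11, 13 and 1 with edgeR and 60, 11, 984, 332, 117 and 165 with DESeq2. Leaving out a library gave 0 to 4, 2 to 7, 1 to 1798, 2 to 786, 1 to 83 and 0 to 56. Whether replicate numbers pair the libraries is not given by the labels. The values did not settle it (correlations of deviations from -0.63 to 0.85, 12 of 24 pairs over 0.1, 8 of 16 libraries best with their own number). With the replicate block, genes called were 0, 1, 1, 47, 9 and 0, members called 0 throughout, and members' medians 0.38, 0.12, -0.4, -0.14, -0.02 and -0.51. Members at few counts (Rpl3l, Rpl36al, Rpl39l) are limited by depth.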
